A study of Mus musculus with 23 samples.

Results

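Gene counts were compared between mouse splenic CD4+ T cells labelled Gpr109a-/- that had been cultured for 72 h with antibodies against CD3 and CD28 and cells of the same label kept in IL-2 alone. Hcar2, the gene of the niacin receptor, was formerly called Gpr109a. The members are the 6 libraries with this label and without niacin, of 23 in the series, 3 stimulated and 3 unstimulated. All mice had the C57BL/6 background, all cells were sorted as CD45+CD3+CD4+CD8-, and all cultures, stimulated ones included, held IL-2 at 30 IU/ml. The response was set against that of 3 stimulated and 3 unstimulated libraries labelled wild type without niacin, and that of 3 stimulated and 2 unstimulated knockout-labelled libraries with 5 mM niacin. Whether the libraries of a group came from different animals is not in the labels, and p-values therefore reflect variation among libraries, which may be technical.

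Binding of the T cell receptor together with CD28 is the signal that takes a resting CD4+ T cell into growth and division. In textbook accounts it acts through calcium and NFAT, AP-1 and NF-kB, and through mTOR, MYC and HIF-1, which raise nutrient uptake, glycolysis and the synthesis of lipids, nucleotides and proteins. Resting cells keep a programme of quiescence factors such as KLF2, FOXO1 and TCF-1 and of receptors for lymphoid homing and survival, among them S1PR1 and the IL-7 receptor. IL-2, present in both arms here, signals through JAK1, JAK3 and STAT5 and is itself a growth factor for cells that carry its receptor.

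Hcar2 counts went against the genotype label. The stimulated knockout-labelled libraries held 4, 0 and 13 counts, and the unstimulated ones 17, 26 and 7 counts, at 0.171, 0 and 0.562 CPM in stimulated libraries, against 0.6103, 1.01 and 0.599 CPM in unstimulated libraries. The library at 0 allows up to 0.138 CPM, the level of 3 counts. Wild-type-labelled cells averaged 0 ± 0 CPM stimulated and 0.0138 ± 0.0239 CPM unstimulated, so the library labels are used below as names only. Hcar2 itself was not called different by stimulation (log2 fold change -1.58, adjusted p = 0.176). Without stimulated library 3, where Hcar2 was highest, its change was -3.03 (adjusted p = 0.042). With limma voom and quality weights it was called lower (adjusted p = 0.00656). Hcar1, a lactate receptor gene, was at 0 in all 6 libraries, and Ffar2, a short-chain fatty acid receptor gene, averaged 1.06 ± 0.757 CPM in stimulated cells, against 0.906 ± 0.165 CPM in unstimulated cells.

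The cells carried the markers of their label. Cd4 averaged 465 ± 7.43 CPM in stimulated cells, against 509 ± 95.1 CPM in unstimulated cells (SD, n = 3 libraries each, here and below), where CPM is the count scaled to library size with TMM factors. Cd3e averaged 615 ± 13.3 CPM in stimulated cells, against 817 ± 18.8 CPM in unstimulated cells. Cd8a averaged 2.56 ± 0.979 CPM in stimulated cells, against 1.65 ± 1.66 CPM in unstimulated cells. The 12 B cell markers summed to 603 to 647 CPM in stimulated libraries and 415 to 839 CPM in unstimulated libraries. Nearly all of that sum was Ighm, the IgM heavy chain gene, at 611 ± 26.1 CPM in stimulated cells, against 672 ± 229.6 CPM in unstimulated cells, while the B cell antigen gene Ms4a1 stayed below 1 CPM in both groups. The 15 myeloid and dendritic cell markers summed to 2.302 to 4.65 CPM in stimulated libraries and 3.41 to 5.34 CPM in unstimulated libraries. The 9 erythroid and platelet markers summed to 1.15 to 1.69 CPM in stimulated libraries and 0.624 to 2.14 CPM in unstimulated libraries. The 12 NK and gamma delta T cell markers summed to 111 to 125 CPM in stimulated libraries and 69.9 to 94.3 CPM in unstimulated libraries, mostly Eomes in stimulated cells. Of this list 6 of 10 tested members fell. Tcrg-C1, a gamma chain constant gene, averaged 8.93 ± 1.15 CPM in stimulated cells, against 37.1 ± 9.87 CPM in unstimulated cells. Klrb1c, the NK1.1 gene, averaged 0.159 ± 0.275 CPM in stimulated cells, against 4.696 ± 2.87 CPM in unstimulated cells, while Klra4 and Klra8 were at 0 in all 6 libraries. The part of these cells in the results below was not tested. In bulk RNA, fewer cells of a type and less RNA per cell cannot be told apart. Cd4 had a log2 fold change of -0.28 (called, adjusted p = 0.0343), Eomes one of 3.43 and Ighm one of -0.39 (called, adjusted p = 0.0206) when unstimulated library 3 was left out.

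Library totals ran from 13205565 counts, in unstimulated library 3, to 25521210, and the next lowest was 23103740. Unstimulated library 3 stood apart from the other unstimulated libraries. Genes resembling rRNA took 4.57% of its counts, against 1.37 to 1.69% in the other 5 libraries, and its log2 CPM correlated at Pearson's r of 0.941 and 0.948 with the other unstimulated libraries, against 0.977 between those. Of 9654 genes with at least 5 CPM in unstimulated cells, 1231 were over 2-fold above and 1083 over 2-fold below both other unstimulated libraries in library 3, against 43 and 22 such genes for library 1. In the deposited table, the alignment file named for this library is without a tag found in the names of the other 22. Values that rest on it are therefore given with and without it for many of the genes and lists below, but not for all.

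Of 16882 genes tested, 8903 were called different, or 52.7%, with 4256 higher (25.2%) and 4647 lower (27.5%) in stimulated cells, by edgeR's quasi-likelihood test at a Benjamini-Hochberg adjusted p under 0.05. The median log2 fold change, stimulated over unstimulated, was -0.13 over all genes tested, and its median standard error was 0.32. Genes said to rise or fall below passed this test, and their fold changes are on the log2 scale. A change above 2-fold was called for 3177 genes, or 18.8%, of which 1476 were higher (8.74%) and 1701 lower (10.1%). The 3 and 3 libraries did not overlap for 9243 genes (54.8%). Without unstimulated library 3, 4571 genes were called higher and 4583 lower, and 7878 of the 8903 calls (88.5%) were kept, while the sign turned for 38 genes. A fit of these 2 groups alone called 2904 genes higher and 3091 lower. That fit has fewer libraries and takes the spread from these groups only, unstimulated library 3 included. Why it called fewer genes was not tested. The first principal component of log2 CPM, with 65.1% of the variance, separated the stimulated from the unstimulated libraries, and the second, with 17.1%, separated unstimulated library 3.

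**Figure D1:**
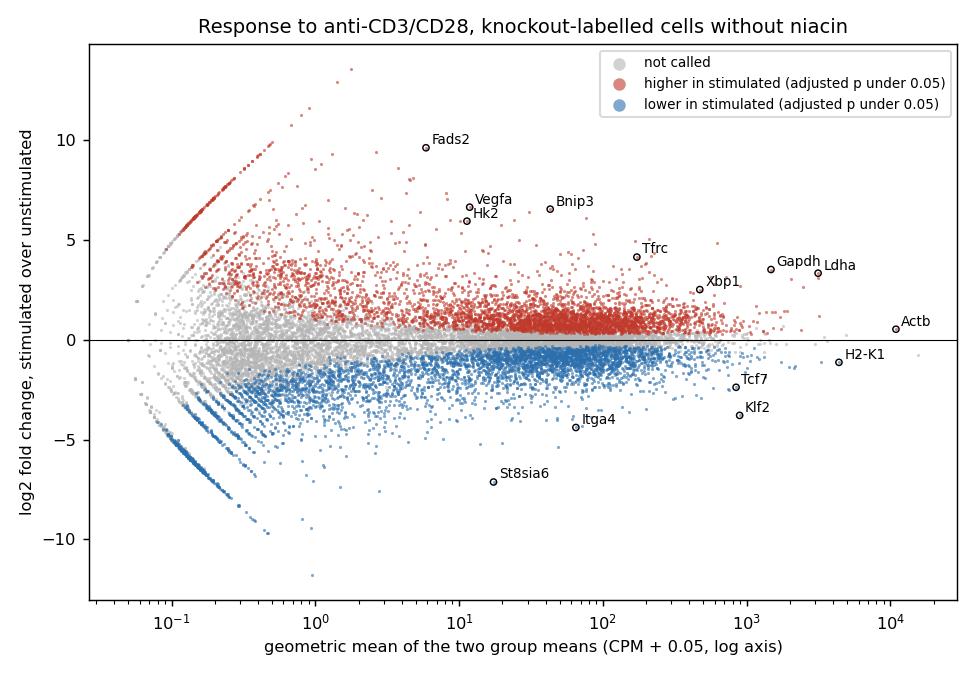
Each point is 1 of the 16882 genes tested, placed by its level over both groups (log axis) and its log2 fold change, stimulated over unstimulated; red genes were called higher and blue genes lower in stimulated cells. The glycolytic gene Ldha lies at a high level and a log2 fold change of 3.33, while Klf2 lies at -3.79 and St8sia6 at -7.13.

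**Figure D2:**
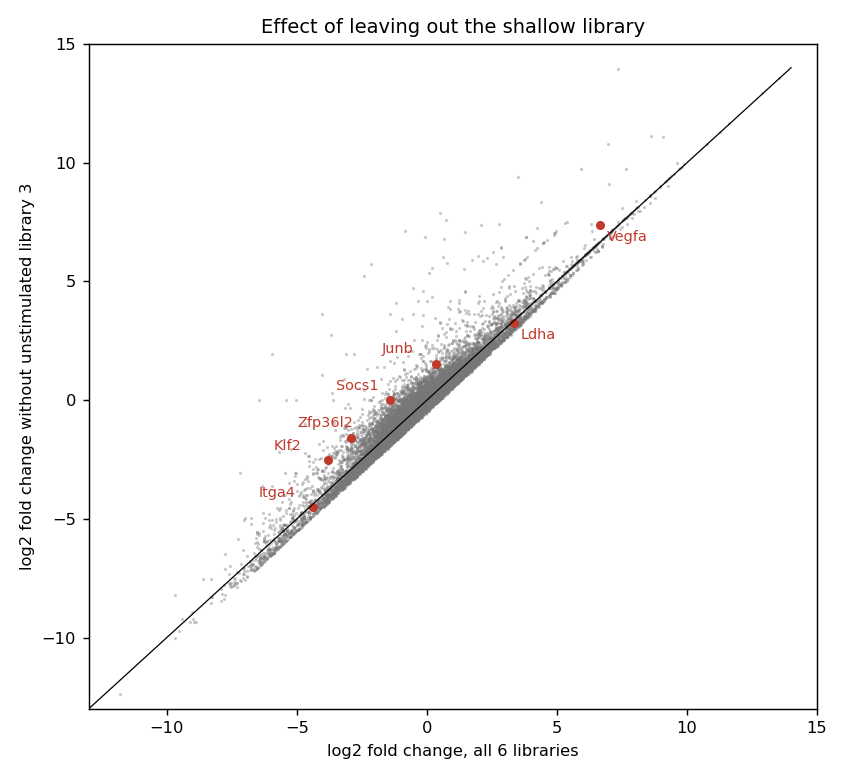
Each point is a gene tested, with its log2 fold change from all 6 libraries on the x axis and without unstimulated library 3 on the y axis; the line marks equal values. Itga4 and Ldha lie near the line, while Klf2 moved to -2.54 and Socs1 to -0.011.

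The largest rises included genes that were barely counted in unstimulated cells. Smtnl2, which encodes a smoothelin-like protein, had 71.7, 51.9 and 64.2 CPM in stimulated libraries and no count in any unstimulated library. It was at least 1361-fold higher against a floor of 3 counts over the unstimulated group. Vldlr, a lipoprotein receptor gene, had 43.4, 41.4 and 34.4 CPM in stimulated libraries and none in unstimulated ones, at least 864-fold higher on the same floor. Fads2, a desaturase of polyunsaturated fatty acids, had 120.2, 150.3 and 145 CPM in stimulated libraries, against 0.179, 0.0779 and 0.342 CPM in unstimulated libraries. Pygl, the liver form of glycogen phosphorylase, had 92.6, 71.7 and 64.1 CPM in stimulated libraries, against 0.431, 0.156 and 0.171 CPM in unstimulated libraries. Ak4, a mitochondrial adenylate kinase known as a HIF-1 target, had 70.6, 70.6 and 68.2 CPM in stimulated libraries, against 0.574, 0 and 0.171 CPM in unstimulated libraries. Fut4, a fucosyltransferase gene, had 45.1, 57.9 and 56.9 CPM in stimulated libraries, against 0, 0.03897 and 0.599 CPM in unstimulated libraries. Mt1, a metallothionein that binds zinc, had 61.9, 53.4 and 74.8 CPM in stimulated libraries, against 0.287, 0.0779 and 0.428 CPM in unstimulated libraries. The rule that picked these genes required libraries without overlap, so the separation of the groups was set by the selection. For all of these every stimulated library was over 30 CPM and every unstimulated library under 1 CPM. Fbln2, an extracellular matrix gene, had 40.4, 49.6 and 56.05 CPM in stimulated libraries, against 0, 0.545 and 0.428 CPM in unstimulated libraries. Emilin2, another matrix gene, had 89.9, 72 and 79.4 CPM in stimulated libraries, against 0, 0 and 2.31 CPM in unstimulated libraries, with counts in unstimulated library 3 only. Scd1, Endou and Mboat2 were the other genes of this group. Scd1, a stearoyl-CoA desaturase, averaged 54.9 ± 2.66 CPM stimulated against 0.0764 ± 0.0722 CPM unstimulated. Endou, an endoribonuclease gene, averaged 22.4 ± 2.33 CPM stimulated against 0.02598 ± 0.045 CPM unstimulated, and Mboat2, an acyltransferase of phospholipids, averaged 27.1 ± 4.77 CPM stimulated against 0.179 ± 0.172 CPM unstimulated.

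The 12 largest falls picked by the rule used for the rises included genes of receptors and enzymes. Ccr9, the receptor for the gut chemokine CCL25, had 0.298, 0.04604 and 0.173 CPM in stimulated libraries, against 50.3, 25.9 and 25.9 CPM in unstimulated libraries. St8sia6, a sialyltransferase, had 2.22, 0.967 and 1.12 CPM in stimulated libraries, against 172, 177 and 259.6 CPM in unstimulated libraries (log2 fold change -7.13), a 141-fold lower mean in stimulated cells. Mmp9, a gelatinase, had 1.36, 2.49 and 2.897 CPM in stimulated libraries, against 97.4, 28.4 and 131 CPM in unstimulated libraries (log2 fold change -5.24). Sulf2, an extracellular sulfatase, had 1.66, 1.105 and 1.297 CPM in stimulated libraries, against 49.2, 14.7 and 63.9 CPM in unstimulated libraries (log2 fold change -4.96). In both, unstimulated library 2 lay far below the other unstimulated libraries. It still lay above every stimulated library, which the rule required. Zbtb16 encodes PLZF, a factor of innate-like T cells, and had 2.34, 0 and 1.77 CPM in stimulated libraries, against 22.04, 17.9 and 46.9 CPM in unstimulated libraries (log2 fold change -4.37). Ifitm10 had 1.19, 0.0921 and 0.865 CPM in stimulated libraries, against 15.6, 21.5 and 40.1 CPM in unstimulated libraries. The same rule also gave Itga4 and Cxcr6, described with the homing genes, and 4 gene models. These were Gm14085 (7.51 ± 1.83 CPM stimulated against 309.8 ± 178 CPM unstimulated), Gm45552 (3.26 ± 0.634 CPM stimulated against 119 ± 38.2 CPM unstimulated), Gm42809 (1.03 ± 0.516 CPM stimulated against 31.2 ± 16.1 CPM unstimulated) and C230096K16Rik (1.18 ± 0.445 CPM stimulated against 29.4 ± 11.5 CPM unstimulated). Genes outside the rule, such as Xcl1 (log2 fold change -5.39), fell by as much. Zbtb16 had a log2 fold change of -4.99 when stimulated library 1 was left out.

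Receptor genes for IL-2 family cytokines moved in opposite directions. Il2ra, the inducible alpha chain, averaged 1556 ± 129 CPM in stimulated cells, against 224 ± 87.5 CPM in unstimulated cells, and Il2rb, the signalling beta chain, had 3142, 3128 and 3214 CPM in stimulated libraries, against 1413, 925 and 1159 CPM in unstimulated libraries, a log2 fold change of 1.44 ± 0.25 (SE, adjusted p = 8.56e-05). Il4ra, the IL-4 receptor chain, averaged 821 ± 35.1 CPM in stimulated cells, against 395 ± 3.77 CPM in unstimulated cells. Il7r, which encodes the IL-7 receptor of resting cells, had 45.7, 39.9 and 43.7 CPM in stimulated libraries, against 632, 681 and 277 CPM in unstimulated libraries (log2 fold change -3.62). Il2rg, the shared gamma chain, was not called, with 468 ± 5.63 CPM stimulated against 524 ± 130.1 CPM unstimulated. Of 22 genes in the list of other cytokine receptors, 3 rose and 13 fell, with a median log2 fold change of -0.84, against the -0.13 of all genes tested. Il12rb2, an IL-12 receptor chain linked to Th1 cells, rose with 105, 118 and 105 CPM in stimulated libraries, against 26.6, 15.1 and 11.1 CPM in unstimulated libraries (log2 fold change 2.62). Il10ra rose with 173 ± 9.96 CPM stimulated against 70.2 ± 17.6 CPM unstimulated. Il6ra, the IL-6 receptor chain, fell with 18.4, 19.9 and 11.1 CPM in stimulated libraries, against 202, 239.7 and 259.6 CPM in unstimulated libraries (log2 fold change -3.83). Tgfbr2, a TGF-beta receptor, fell with 158, 135 and 127 CPM in stimulated libraries, against 442, 529 and 519.5 CPM in unstimulated libraries (log2 fold change -1.83). Il18r1 fell with 11.6 ± 2.26 CPM stimulated against 37.3 ± 15.8 CPM unstimulated. The list also holds 1 ligand, Osm, which rose with 143 ± 2.55 CPM stimulated against 59.5 ± 13.7 CPM unstimulated. Il2rg had a log2 fold change of -0.35 (called, adjusted p = 0.0138) when unstimulated library 3 was left out. Il2rg (adjusted p = 0.00946) was called with limma voom and quality weights.

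The TNF receptor family was split, with 9 of 21 genes higher and 9 lower, against 25.2% higher and 27.5% lower of all genes tested. Without unstimulated library 3, 6 of the 21 were higher and 8 lower. Tnfrsf9, which encodes the costimulator 4-1BB, had 488, 344 and 444 CPM in stimulated libraries, against 68.6, 37.6 and 22.5 CPM in unstimulated libraries (log2 fold change 3.30). Tnfrsf8, the CD30 gene, had 18.7, 16.6 and 29.5 CPM in stimulated libraries, against 1.44, 0.429 and 0 CPM in unstimulated libraries. Tnfrsf4 (OX40) and Tnfrsf18 (GITR) rose with log2 fold changes of 3.22 and 2.35. Those that fell included Cd27, a receptor of resting T cells, with 116, 103 and 88.8 CPM in stimulated libraries, against 263, 322 and 181 CPM in unstimulated libraries (log2 fold change -1.32), and Tnfrsf25, with 49.9 ± 4.18 CPM stimulated against 148 ± 80.2 CPM unstimulated. Cd40lg, the ligand through which helper T cells act on B cells, had 47.02, 46.04 and 37.02 CPM in stimulated libraries, against 122, 121 and 56.4 CPM in unstimulated libraries (log2 fold change -1.21) after the 72 h. In the CD28 and inhibitory receptor list, 3 of 17 rose and 6 fell, against 25.2% higher and 27.5% lower of all genes tested. In this list 2 rose and 8 fell without unstimulated library 3. Ctla4 averaged 84.9 ± 0.386 CPM in stimulated cells, against 7.802 ± 3.05 CPM in unstimulated cells. Cd274, which encodes PD-L1, fell with 17.6, 10.7 and 14.3 CPM in stimulated libraries, against 130.3, 167 and 57.8 CPM in unstimulated libraries (log2 fold change -3.06). Cd226, an activating receptor, fell with 18.6 ± 1.48 CPM stimulated against 68.6 ± 26.6 CPM unstimulated. Cd28 itself averaged 34.2 ± 1.07 CPM stimulated against 44.9 ± 10.7 CPM unstimulated and was not called. Cd28 had a log2 fold change of -0.57 (called, adjusted p = 0.00348) when unstimulated library 3 was left out. Cd28 (adjusted p = 0.0232) was called with RLE scaling. Cd28 (adjusted p = 0.0114) was called with DESeq2. Cd28 (adjusted p = 0.00164) was called with limma voom and quality weights.

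Of 33 genes of the T cell receptor complex and its proximal signalling, 3 rose and 10 fell, with a median log2 fold change of -0.015. Among all genes tested 25.2% rose and 27.5% fell. Without unstimulated library 3, 7 rose and 11 fell, where 4571 of all 16882 genes tested rose and 4583 fell, a similar share. The number that fell was 6 without stimulated library 1 or 3 or unstimulated library 2. The falls above 2-fold were in Dgka, a diacylglycerol kinase that limits Ras signalling, with 382, 386 and 361 CPM in stimulated libraries, against 1017, 1397 and 838 CPM in unstimulated libraries (log2 fold change -1.53), and in Pag1, a membrane adaptor that recruits the kinase CSK, with 18.2, 20.6 and 17.3 CPM in stimulated libraries, against 38.6, 52.2 and 102 CPM in unstimulated libraries (log2 fold change -1.78). Ptpn6, the SHP-1 phosphatase, rose with 446 ± 28.9 CPM stimulated against 200.4 ± 8.405 CPM unstimulated. Lck, the kinase that starts the signal, rose with 1577 ± 13.5 CPM stimulated against 1235 ± 53.5 CPM unstimulated, and Cd3d rose with 535 ± 51.05 CPM stimulated against 342 ± 146 CPM unstimulated. Cd3e fell, with a log2 fold change of -0.41 ± 0.10 (SE). Cd3d had a log2 fold change of 0.57 (no longer called, adjusted p = 0.0594) when stimulated library 1 was left out. Cd3d (adjusted p = 0.179), Cd3e (adjusted p = 0.0516) and Lck (adjusted p = 0.105) were not called in the fit of these 2 groups alone. Lck (adjusted p = 0.136) was not called with no filter on low counts.

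Of 21 NR4A, EGR and NFAT response genes tested, 5 rose and 4 fell at 72 h, against 25.2% higher and 27.5% lower of all genes. Their median log2 fold change was -0.13, and 7 fell without unstimulated library 1 or 2. Of 15 AP-1 and CREM family factors tested, 7 rose and 4 fell, with a median of 0.48. Without unstimulated library 3, 9 of these rose and 2 fell, with a median of 1.19. Nr4a1, an orphan nuclear receptor induced by receptor signalling, had 36.7, 32.8 and 32.9 CPM in stimulated libraries, against 4.24, 3.31 and 3.17 CPM in unstimulated libraries (log2 fold change 3.24). Irf4, a factor whose level follows receptor signal strength, had 42.8, 31.5 and 53.1 CPM in stimulated libraries, against 6.498, 5.11 and 3.42 CPM in unstimulated libraries (log2 fold change 3.06). Batf3, a partner of IRF4, averaged 6.06 ± 3.31 CPM stimulated against 0.302 ± 0.2702 CPM unstimulated, and Atf3, a stress-induced ATF factor, averaged 15.4 ± 2.34 CPM stimulated against 0.432 ± 0.111 CPM unstimulated. Irf8, a related factor, had 302, 349 and 395 CPM in stimulated libraries, against 74.9, 63.6 and 149.7 CPM in unstimulated libraries (log2 fold change 1.86). Fos rose with 43.99 ± 9.596 CPM stimulated against 13.9 ± 4.08 CPM unstimulated, and Fosl2 rose with 22.9 ± 5.81 CPM stimulated against 5.78 ± 1.71 CPM unstimulated. Egr2, a target of NFAT, was near the limit of detection at 1.53 ± 0.758 CPM stimulated against 0.347 ± 0.152 CPM unstimulated and was not called. Dusp2, a MAP kinase phosphatase, fell with 78.6, 77.02 and 88.2 CPM in stimulated libraries, against 153, 166 and 557 CPM in unstimulated libraries (log2 fold change -1.84), and Nfatc1 fell with 229 ± 9.19 CPM stimulated against 463 ± 168 CPM unstimulated. Junb averaged 629 ± 71.7 CPM stimulated against 498 ± 484 CPM unstimulated and was not called, and Jun was called lower with 100.1, 97.5 and 96 CPM in stimulated libraries, against 103, 99.1 and 416 CPM in unstimulated libraries (log2 fold change -1.07). For Jun, Junb and Dusp2, unstimulated library 3 lay over 2-fold above both other unstimulated libraries. Dusp2 had a log2 fold change of -0.97, Jun one of -0.046 (no longer called, adjusted p = 0.81) and Junb one of 1.52 (called, adjusted p = 3.31e-06) when unstimulated library 3 was left out. Without that library the log2 fold change of Batf3 moved from 4.53 to 5.28. Jun (adjusted p = 0.133) was not called in the fit of these 2 groups alone. Egr2 (adjusted p = 0.0315) was called in the fit of these 2 groups alone. Egr2 (adjusted p = 0.0135) was called with no filter on low counts. Egr2 (adjusted p = 0.0386) was called with DESeq2. Jun (adjusted p = 0.533) was not called with limma voom and quality weights. Junb (adjusted p = 2.24e-06) was called with limma voom and quality weights.

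NF-kB genes fell more often than they rose, with 13 of 18 lower and 2 higher. Rel, the c-Rel subunit, had 8.397, 9.02 and 7.91 CPM in stimulated libraries, against 31.1, 32.7 and 31.1 CPM in unstimulated libraries (log2 fold change -1.90). Map3k14, the kinase NIK of the noncanonical branch, had 26.3, 27.9 and 24.7 CPM in stimulated libraries, against 68.7, 88.4 and 107 CPM in unstimulated libraries (log2 fold change -1.74), and Relb had 57.9 ± 4.46 CPM stimulated against 150.2 ± 104 CPM unstimulated. Nfkbia, the inhibitor IkB-alpha and a direct target of the pathway, averaged 166 ± 12.6 CPM in stimulated cells, against 314 ± 104 CPM in unstimulated cells. Nfkb1, which encodes p105 and p50, rose with 169.8, 181 and 193 CPM in stimulated libraries, against 74.5, 66.6 and 89.5 CPM in unstimulated libraries (log2 fold change 1.24). Bcl3, an atypical IkB protein, averaged 200.3 ± 2.82 CPM stimulated against 104 ± 64.3 CPM unstimulated, a rise whose adjusted p was 0.033. Without 1 library, Bcl3 had log2 fold changes of 0.95 without stimulated library 1 (no longer called, adjusted p = 0.0596), 0.95 without stimulated library 2 (no longer called, adjusted p = 0.0604), 0.93 without stimulated library 3 (no longer called, adjusted p = 0.0655), 0.78 without unstimulated library 1 (no longer called, adjusted p = 0.114), 0.65 without unstimulated library 2 (no longer called, adjusted p = 0.152) and 1.56 without unstimulated library 3. Relb had a log2 fold change of -0.64 when unstimulated library 3 was left out. Bcl3 (adjusted p = 0.0837) was not called in the fit of these 2 groups alone. Bcl3 (adjusted p = 0.0552) was not called with RLE scaling.

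Factors of quiescence fell nearly throughout. Of 24 transcription factors and regulators of naive and quiescent cells, 23 fell and none rose (1 without unstimulated library 3), with a median log2 fold change of -1.26. Klf2, which drives expression of homing receptors, had 268, 246 and 206 CPM in stimulated libraries, against 1197, 1594 and 7190 CPM in unstimulated libraries (log2 fold change -3.79). Its value in unstimulated library 3 was over 4 times that in either other unstimulated library. Klf3, a related repressor, had 36.5, 23.4 and 22.3 CPM in stimulated libraries, against 271, 289.9 and 378 CPM in unstimulated libraries (log2 fold change -3.51). Tcf7, the TCF-1 gene, had 376, 386 and 346 CPM in stimulated libraries, against 1552, 1919 and 2317 CPM in unstimulated libraries (log2 fold change -2.38). Foxo1, the factor that maintains Il7r and Klf2, had 174, 175 and 168 CPM in stimulated libraries, against 379.5, 408 and 1017 CPM in unstimulated libraries (log2 fold change -1.80). Zfp36l2, an RNA-binding protein that destabilises mRNA, had 178, 167 and 182 CPM in stimulated libraries, against 515, 546 and 2899 CPM in unstimulated libraries (log2 fold change -2.91), and the antiproliferative gene Btg1 had 179.9, 164 and 169 CPM in stimulated libraries, against 745, 832 and 1888 CPM in unstimulated libraries (log2 fold change -2.76). Pik3ip1, an inhibitor of PI3 kinase, had 71.2, 63.02 and 47.7 CPM in stimulated libraries, against 258, 339 and 613 CPM in unstimulated libraries (log2 fold change -2.73). In each of these genes every unstimulated library lay above every stimulated one. Foxo3 was not called, with 17.4 ± 2.72 CPM stimulated against 14.9 ± 7.36 CPM unstimulated. Klf13, another Kruppel-like factor, was among the 10 largest falls in CPM, with 314, 312 and 312 CPM in stimulated libraries, against 604, 700.2 and 4111 CPM in unstimulated libraries (log2 fold change -2.53). Txnip, a brake on glucose uptake, fell with 261 ± 36.3 CPM in stimulated cells, against 799 ± 239 CPM in unstimulated cells, and Ypel3 fell with 87.7 ± 11.5 CPM stimulated against 562 ± 278 CPM unstimulated. Foxo1 had a log2 fold change of -1.19, Foxo3 one of 0.69 (called, adjusted p = 0.00975), Klf13 one of -1.06, Klf2 one of -2.54 and Zfp36l2 one of -1.59 when unstimulated library 3 was left out. Foxo3 (adjusted p = 0.00774) was called with limma voom and quality weights.

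Lineage factors of helper T cells fell in 12 of 22 cases and rose in 4. Bcl6, the factor of follicular helper cells, had 2.13, 4.14 and 2.72 CPM in stimulated libraries, against 29.1, 33.6 and 41.6 CPM in unstimulated libraries (log2 fold change -3.53). Gata3, the Th2 factor, had 87.04, 84.3 and 86.97 CPM in stimulated libraries, against 135, 122 and 349 CPM in unstimulated libraries (log2 fold change -1.23). Tbx21, the Th1 factor T-bet, had 53.8, 44.7 and 67.5 CPM in stimulated libraries, against 126, 73.5 and 316 CPM in unstimulated libraries (log2 fold change -1.63). Foxp3, the factor of regulatory T cells, averaged 39.8 ± 4.97 CPM in stimulated cells, against 176 ± 15.4 CPM in unstimulated cells, and Ikzf2 (Helios) averaged 8.25 ± 1.08 CPM stimulated against 30.1 ± 8.81 CPM unstimulated. Rora fell with 14.5, 8.61 and 11.5 CPM in stimulated libraries, against 96.7, 59.3 and 107 CPM in unstimulated libraries (log2 fold change -2.93). Ahr, the aryl hydrocarbon receptor, fell with 0.938, 0.0921 and 1.04 CPM in stimulated libraries, against 5.49, 8.26 and 23.7 CPM in unstimulated libraries. Its log2 fold change was -4.14, and -3.30 without unstimulated library 3. The genes that rose were led by Eomes, a T-box factor of memory and cytotoxic cells, with 93.9, 108 and 93.9 CPM in stimulated libraries, against 9.15, 9.16 and 25 CPM in unstimulated libraries (log2 fold change 2.80). Bhlhe40, a regulator of cytokine output, rose with 442, 430.4 and 449.7 CPM in stimulated libraries, against 102, 52.8 and 60.6 CPM in unstimulated libraries (log2 fold change 2.62). Zbtb32 averaged 24.1 ± 3.95 CPM stimulated against 9.23 ± 5.61 CPM unstimulated. Of 12 regulatory T cell markers, 6 rose, led by Ctla4 and Il2ra, and 4 fell, among them Foxp3, Ikzf2 and Nrp1 (13.4 ± 6.09 CPM stimulated against 75.7 ± 20.9 CPM unstimulated). The shares over all genes tested were 25.2% higher and 27.5% lower. Eomes had a log2 fold change of 3.43, Gata3 one of -0.58, Tbx21 one of -0.85 (no longer called, adjusted p = 0.0991) and Zbtb32 one of 2.0 when unstimulated library 3 was left out.

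Of 22 STAT factors and SOCS inhibitors 4 rose and 7 fell, against 25.2% higher and 27.5% lower of all genes tested. The number that rose was 7 without unstimulated library 3, and 2 without unstimulated library 1 or 2. Jak1 had 518, 514 and 524 CPM in stimulated libraries, against 1290, 1439 and 930.0 CPM in unstimulated libraries (log2 fold change -1.23). Socs1 was called lower on the strength of 1 library, with 607, 596 and 643 CPM in stimulated libraries, against 634, 606 and 3677 CPM in unstimulated libraries (log2 fold change -1.41). Socs1 had a log2 fold change of -0.011 (no longer called, adjusted p = 0.973) when unstimulated library 3 was left out. Socs1 (adjusted p = 0.115) was not called in the fit of these 2 groups alone. Socs1 (adjusted p = 0.645) was not called with limma voom and quality weights.

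**Figure D3:**
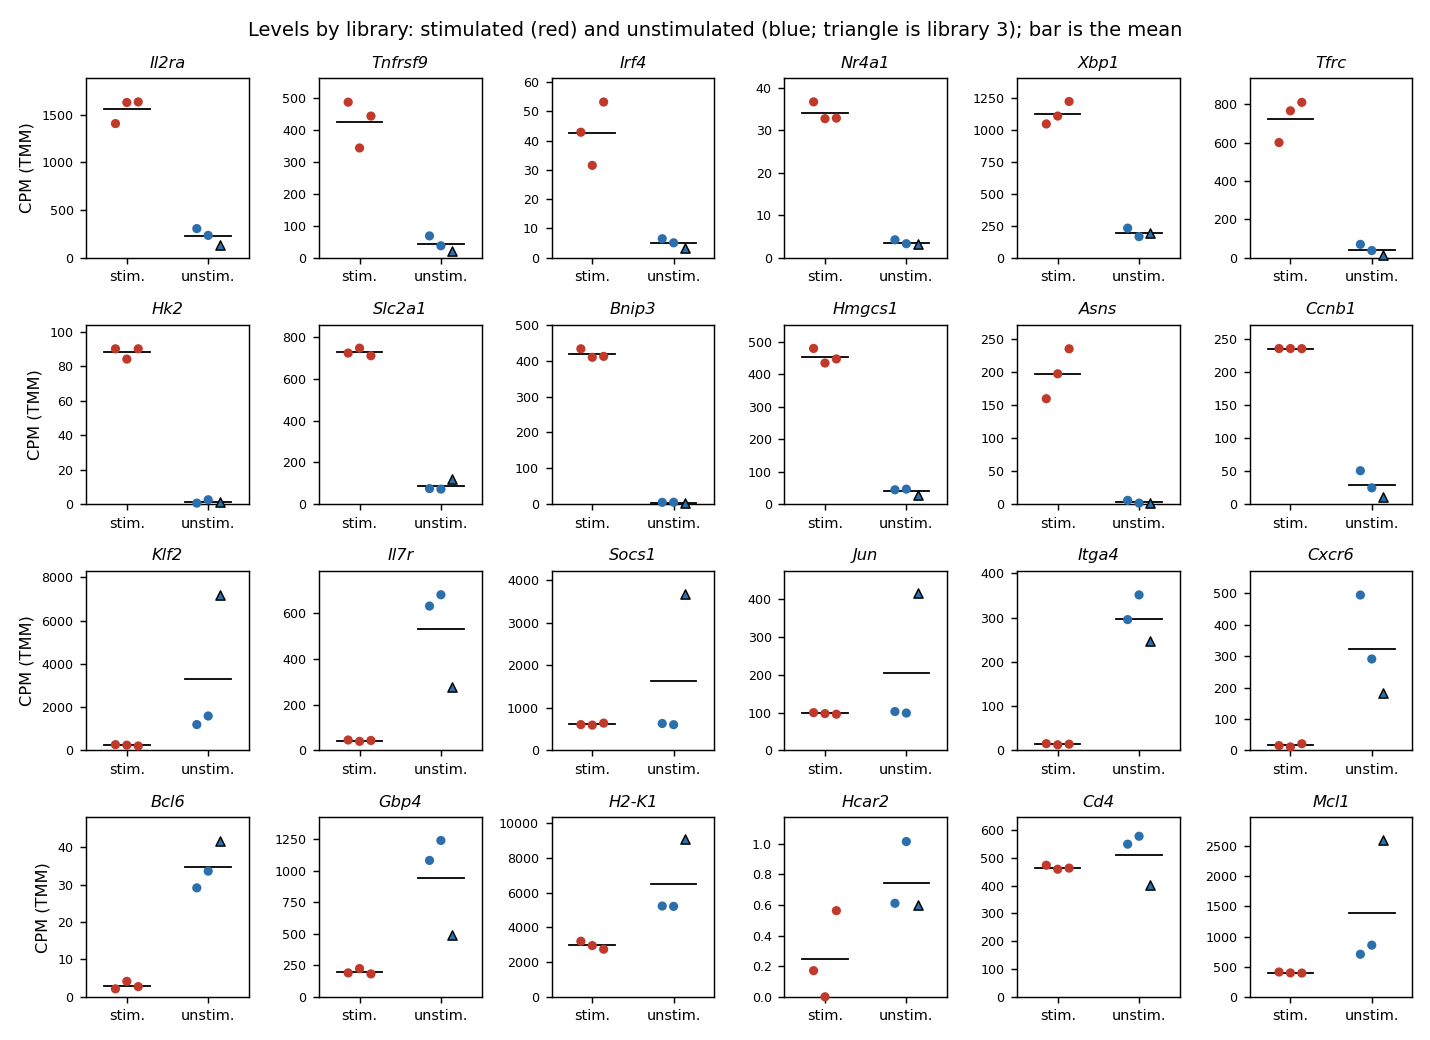
Each panel gives 1 gene's level in CPM (linear axis from 0) in the 3 stimulated libraries on the left and the 3 unstimulated libraries on the right, with the group mean as a bar and unstimulated library 3 as a triangle. For Il2ra, Irf4 or Slc2a1 the groups are apart in all libraries, while the means of Socs1 and Jun in unstimulated cells are set by library 3.

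Glycolysis had the highest median log2 fold change of the 27 lists plotted. Of 22 genes of glycolysis and lactate handling, 20 rose, 19 of them by more than 2-fold, and none fell (1 without unstimulated library 3), with a median log2 fold change of 3.11. Together they took 4.95% of the scaled counts in stimulated cells and 0.562% in unstimulated cells. Hk2, the inducible hexokinase, had 90.2, 84.2 and 90.2 CPM in stimulated libraries, against 0.574, 2.53 and 1.11 CPM in unstimulated libraries, a log2 fold change of 5.94 ± 0.57 (SE, adjusted p = 5.78e-08). Slc2a1, the glucose transporter GLUT1, had 723, 747 and 710.3 CPM in stimulated libraries, against 74.2, 71.7 and 119 CPM in unstimulated libraries (log2 fold change 3.04). Slc2a3 (GLUT3) had 1070, 828 and 859 CPM in stimulated libraries, against 60.5, 52.4 and 39.5 CPM in unstimulated libraries (log2 fold change 4.17). Aldoc, a brain-type aldolase, had 328, 284 and 239 CPM in stimulated libraries, against 3.88, 3.19 and 2.83 CPM in unstimulated libraries (log2 fold change 6.41). Tpi1, triosephosphate isomerase, had 3423, 3259 and 3407 CPM in stimulated libraries, against 154, 99.3 and 93.5 CPM in unstimulated libraries (log2 fold change 4.86). Gapdh, which has many processed copies that can share its reads, had 5275, 4825 and 4896 CPM in stimulated libraries, against 539, 354 and 417 CPM in unstimulated libraries (log2 fold change 3.52). Slc16a3, the lactate exporter MCT4, had 961, 879.9 and 923 CPM in stimulated libraries, against 22.3, 16.4 and 51.9 CPM in unstimulated libraries (log2 fold change 4.95). Hk1, the constitutive hexokinase, rose by less, with a log2 fold change of 0.88 ± 0.17 (SE). Pfkfb4, a regulator of glycolytic flux, averaged 17.7 ± 2.76 CPM stimulated against 11.97 ± 1.897 CPM unstimulated, and Ldhb averaged 20.7 ± 2.99 CPM stimulated against 23.2 ± 8.68 CPM unstimulated. Neither was called. Ldha, Pkm, Aldoa, Eno1, Gapdh and Tpi1 were 6 of the 10 genes with the largest rise in CPM, beside Actb, Eef1a1, Il2rb and Atp5b. Actb, the cytoskeletal actin, averaged 13110 ± 456 CPM in stimulated cells, against 9110 ± 1061 CPM in unstimulated cells, and Eef1a1, a translation elongation factor, averaged 4807 ± 276 CPM in stimulated cells, against 2097 ± 815 CPM in unstimulated cells. Ldhb had a log2 fold change of -0.43 (called, adjusted p = 0.0203) and Slc16a3 one of 5.57 when unstimulated library 3 was left out. Hk2 had a log2 fold change of 6.84 and Pfkfb4 one of 0.66 (called, adjusted p = 0.0491) when unstimulated library 2 was left out. Pfkfb4 had a log2 fold change of 0.68 (called, adjusted p = 0.0381) when stimulated library 3 was left out. Ldhb (adjusted p = 0.0337) was called with limma voom and quality weights.

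Targets of the hypoxia factor rose with them, 18 of 22, none falling, with a median log2 fold change of 2.63. Vegfa, an angiogenic growth factor, had 114, 95.8 and 112 CPM in stimulated libraries, against 0.359, 0.935 and 2.48 CPM in unstimulated libraries (log2 fold change 6.64). Bnip3, a mitophagy receptor, had 433, 409 and 412 CPM in stimulated libraries, against 4.95, 5.26 and 2.91 CPM in unstimulated libraries (log2 fold change 6.54). Egln3, a prolyl hydroxylase that acts on HIF, had 681, 564 and 616 CPM in stimulated libraries, against 9.19, 4.01 and 15.1 CPM in unstimulated libraries (log2 fold change 6.08). Ndrg1 had 516, 494 and 390.0 CPM in stimulated libraries, against 14.97, 20.8 and 13.8 CPM in unstimulated libraries (log2 fold change 4.82). Hif1a itself rose with 442 ± 7.28 CPM in stimulated cells, against 216 ± 18.1 CPM in unstimulated cells. Ddit4, a hypoxia-induced inhibitor of mTORC1, rose with 196 ± 11.7 CPM stimulated against 27.4 ± 23.6 CPM unstimulated, the only member of a list of 17 growth and glucose brakes to do so, where 13 fell. Pdk1, which limits pyruvate entry to mitochondria, was not called, with 464 ± 62.5 CPM stimulated against 413 ± 115 CPM unstimulated. Ddit4 had a log2 fold change of 3.83 and Vegfa one of 7.38 when unstimulated library 3 was left out.

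Promoters of both lists were searched for the core of the hypoxia response element. The motif ACGTG, searched on both strands in the 250 bases before the start in RefSeq (GRCm38.p6), was found for 12 of 18 hypoxia genes and 11 of 21 glycolysis genes with an entry, against 18.5% of all 27025 genes in the table. The promoter of Hk2, on chr6:82774455-82774704 (minus strand), is shown because Hk2 rose most among the glycolysis genes with a match. Capitals mark the motif, which reads CACGT here, from the other strand, 226 and 52 bases before the start.
Hk2: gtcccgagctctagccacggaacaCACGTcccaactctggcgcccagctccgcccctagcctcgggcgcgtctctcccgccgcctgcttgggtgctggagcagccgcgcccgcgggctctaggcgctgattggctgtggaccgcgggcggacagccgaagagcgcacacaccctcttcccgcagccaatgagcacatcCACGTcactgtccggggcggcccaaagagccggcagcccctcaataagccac
A match is a description of these letters and not evidence of binding.

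Cholesterol synthesis rose as a whole, with 24 of 25 genes higher, none lower and a median log2 fold change of 2.29. Hmgcs1, which makes HMG-CoA, had 479.8, 435 and 448 CPM in stimulated libraries, against 44.1, 46.2 and 27.2 CPM in unstimulated libraries, a log2 fold change of 3.53 ± 0.18 (SE, adjusted p = 7.29e-12). Fdps, which makes farnesyl diphosphate, had 166, 153 and 149 CPM in stimulated libraries, against 15.7, 12.9 and 10.8 CPM in unstimulated libraries (log2 fold change 3.56). Srebf2, the factor that drives these genes, rose by less, with 699 ± 3.06 CPM in stimulated cells, against 506 ± 201 CPM in unstimulated cells and an adjusted p of 0.0335. 1 gene was not called. In the other direction, Mylip, an LXR target, fell with 12.96, 9.48 and 11.1 CPM in stimulated libraries, against 32.9, 54.2 and 49.3 CPM in unstimulated libraries (log2 fold change -2.02). Without 1 library, Srebf2 had log2 fold changes of 0.47 without stimulated library 1 (no longer called, adjusted p = 0.0654), 0.46 without stimulated library 2 (no longer called, adjusted p = 0.0682), 0.47 without stimulated library 3 (no longer called, adjusted p = 0.0652), 0.30 without unstimulated library 1 (no longer called, adjusted p = 0.174) and 0.32 without unstimulated library 2 (no longer called, adjusted p = 0.159). Srebf2 (adjusted p = 0.191) was not called in the fit of these 2 groups alone. Srebf2 (adjusted p = 0.0968) was not called with RLE scaling. Srebf2 (adjusted p = 0.0956) was not called with DESeq2. The sterol response motif TCACNCCAC was found in 1 of 17 promoters of the list with an entry, against 1.22% of all genes. That one is Hmgcs1, on chr13:119690101-119690350 (plus strand), shown with the motif in capitals 137 bases before the start.
Hmgcs1: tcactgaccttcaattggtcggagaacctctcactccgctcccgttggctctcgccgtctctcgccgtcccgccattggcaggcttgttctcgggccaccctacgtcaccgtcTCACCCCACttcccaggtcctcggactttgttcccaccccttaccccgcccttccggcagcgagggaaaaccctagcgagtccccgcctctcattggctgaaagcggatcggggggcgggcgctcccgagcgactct

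All 15 genes of fatty acid synthesis and desaturation rose. Scd2, a stearoyl-CoA desaturase, had 1157, 1227 and 1245 CPM in stimulated libraries, against 51.9, 27.4 and 29.5 CPM in unstimulated libraries (log2 fold change 5.06). Fasn, fatty acid synthase, had 727, 702 and 799.9 CPM in stimulated libraries, against 224, 213 and 326 CPM in unstimulated libraries (log2 fold change 1.55), and Acaca, which makes malonyl-CoA, averaged 20.6 ± 4.43 CPM stimulated against 7.11 ± 3.26 CPM unstimulated. Srebf1, the factor of this pathway, averaged 307 ± 16.8 CPM stimulated against 193 ± 122 CPM unstimulated (adjusted p = 0.0351). Of 15 genes of serine and one-carbon metabolism, 12 rose and none fell, while 1 fell without unstimulated library 3. Psat1, an enzyme of serine synthesis, had 461, 518 and 537 CPM in stimulated libraries, against 93.2, 49.7 and 43.3 CPM in unstimulated libraries (log2 fold change 3.02). Phgdh, the first enzyme of that route, had 514, 580.1 and 612 CPM in stimulated libraries, against 139, 122 and 140.0 CPM in unstimulated libraries (log2 fold change 2.09). Mthfd2, a mitochondrial folate enzyme, rose with 292 ± 15.1 CPM in stimulated cells, against 72.5 ± 17.6 CPM in unstimulated cells. Aldh1l2, a mitochondrial formyltetrahydrofolate dehydrogenase, averaged 4.38 ± 2.37 CPM in stimulated cells with no count in any unstimulated library. Without 1 library, Srebf1 had log2 fold changes of 0.72 without stimulated library 1 (no longer called, adjusted p = 0.051), 0.64 without stimulated library 2 (no longer called, adjusted p = 0.0796), 0.66 without stimulated library 3 (no longer called, adjusted p = 0.0724), 0.44 without unstimulated library 1 (no longer called, adjusted p = 0.169), 0.43 without unstimulated library 2 (no longer called, adjusted p = 0.178) and 1.32 without unstimulated library 3. Srebf1 (adjusted p = 0.19) was not called in the fit of these 2 groups alone. Srebf1 (adjusted p = 0.0756) was not called with RLE scaling. Srebf1 (adjusted p = 0.0686) was not called with DESeq2.

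Amino acid transporters and the integrated stress response rose in part. Of 15 amino acid transporter genes, 7 rose, each by more than 2-fold, and none fell, while 1 fell without unstimulated library 1 and 2 fell without unstimulated library 2. Slc7a5, the large neutral amino acid transporter LAT1, had 666, 703 and 769 CPM in stimulated libraries, against 92.2, 76.8 and 146 CPM in unstimulated libraries (log2 fold change 2.77). Slc1a4, a carrier of small neutral amino acids, averaged 23.8 ± 2.99 CPM stimulated against 0.716 ± 0.659 CPM unstimulated, and Slc7a3, a carrier of cationic ones, averaged 13.2 ± 3.78 CPM stimulated against 0.3897 ± 0.675 CPM unstimulated. Slc1a5, a glutamine carrier, averaged 409.7 ± 10.8 CPM stimulated against 532 ± 294 CPM unstimulated and was not called. In the integrated stress response list 13 of 19 genes tested rose. Asns, asparagine synthetase, had 159, 197 and 235 CPM in stimulated libraries, against 5.71, 1.52 and 1.54 CPM in unstimulated libraries (log2 fold change 6.0). Atf4, the central factor, averaged 383 ± 23.1 CPM in stimulated cells, against 90.1 ± 1.76 CPM in unstimulated cells. Eif4ebp1, a translation repressor and known target of ATF4, averaged 262 ± 18.2 CPM stimulated against 12.6 ± 4.67 CPM unstimulated, and Chac1, which degrades glutathione, averaged 12.7 ± 2.75 CPM stimulated against 0.8904 ± 0.676 CPM unstimulated. Of 20 cytosolic aminoacyl-tRNA synthetase genes 18 rose, with a median log2 fold change of 1.33, among them Cars and Gars, the cysteine and glycine enzymes. Cars averaged 237 ± 18.9 CPM stimulated against 50.3 ± 3.52 CPM unstimulated, and Gars averaged 622 ± 53.7 CPM stimulated against 149 ± 38.7 CPM unstimulated. Of 17 mitochondrial ones 6 rose and 1 fell, Ears2 (3 without unstimulated library 1), with a median of 0.051. The difference between these medians was not tested. Asns had a log2 fold change of 7.0 and Slc1a5 one of -0.59 (called, adjusted p = 0.0306) when unstimulated library 1 was left out. Ears2 had a log2 fold change of -0.45 (no longer called, adjusted p = 0.0627) and Slc1a5 one of -0.59 (called, adjusted p = 0.0354) when unstimulated library 2 was left out. Ears2 had a log2 fold change of -0.37 (no longer called, adjusted p = 0.126) when stimulated library 3 was left out. Ears2 (adjusted p = 0.0894) was not called in the fit of these 2 groups alone. Ears2 (adjusted p = 0.089) was not called with no filter on low counts. The element TGATGNAA, to which ATF4 with C/EBP partners is known to bind, was found for 6 of 18 stress response genes and 3 of 12 synthetase genes with an entry, against 3.91% of all genes. The Gars promoter, on chr6:55037751-55038000 (plus strand), is shown for the synthetases with the motif in capitals, as TTTCATCA from the other strand, 30 bases before the start.
Gars: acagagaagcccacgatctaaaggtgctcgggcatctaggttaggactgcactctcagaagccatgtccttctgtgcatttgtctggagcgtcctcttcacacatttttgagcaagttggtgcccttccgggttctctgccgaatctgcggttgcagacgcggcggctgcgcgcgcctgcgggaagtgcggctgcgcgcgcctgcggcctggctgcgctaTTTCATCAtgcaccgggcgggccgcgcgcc

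Most nuclear genes of the respiratory chain, the mitochondrial ribosome and the tricarboxylic acid cycle rose, unlike most of the mitochondrial synthetase genes above. Of 36 nuclear genes of the respiratory chain 35 rose, with a median log2 fold change of 1.0. Atp5b, the catalytic beta subunit of ATP synthase, had 2817, 3008 and 3193 CPM in stimulated libraries, against 1235, 1065 and 971 CPM in unstimulated libraries (log2 fold change 1.46). Of 59 mitochondrial ribosomal protein genes 50 rose and 1 fell, Mrpl38, with a median of 0.88. Of 8 genes of the mitochondrial genome that were tested none rose (1 without unstimulated library 1) and 2 fell, both of complex I. mt-Nd5 had 189, 193 and 163 CPM in stimulated libraries, against 582, 492 and 306 CPM in unstimulated libraries (log2 fold change -1.34). mt-Nd4 had 85.3, 89.6 and 82.1 CPM in stimulated libraries, against 233, 196 and 128 CPM in unstimulated libraries (log2 fold change -1.11). mt-Co1 averaged 2287 ± 198 CPM in stimulated cells, against 1418 ± 444 CPM in unstimulated cells and was not called. In the tricarboxylic acid cycle 17 of 20 genes rose, led by Idh1, the cytosolic isocitrate dehydrogenase, with 55.03, 51.97 and 49.3 CPM in stimulated libraries, against 12.1, 10.4 and 2.65 CPM in unstimulated libraries (log2 fold change 2.60). Mrpl38 had a log2 fold change of -0.23 (no longer called, adjusted p = 0.124) when unstimulated library 3 was left out. mt-Co1 had a log2 fold change of 0.94 (called, adjusted p = 0.0228) when unstimulated library 1 was left out. Mrpl38 had a log2 fold change of -0.46 (no longer called, adjusted p = 0.0613) when stimulated library 1 was left out. Mrpl38 (adjusted p = 0.121) was not called in the fit of these 2 groups alone. mt-Co1 (adjusted p = 0.000257) was called with no filter on low counts. Mrpl38 (adjusted p = 0.0535) was not called with limma voom and quality weights. mt-Co1 (adjusted p = 0.0376) was called with limma voom and quality weights.

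Genes of protein synthesis, folding and breakdown mostly rose. Of 49 cytosolic ribosomal protein genes 43 rose, with a median log2 fold change of 0.89. These genes have many processed copies that can share their reads. Rpl7a averaged 326 ± 13.1 CPM in stimulated cells, against 105 ± 34.6 CPM in unstimulated cells. Rps27 averaged 157 ± 19.8 CPM stimulated against 208 ± 99.8 CPM unstimulated, and Rpl13 averaged 778 ± 60.9 CPM stimulated against 869 ± 571 CPM unstimulated. Neither was called. Of 35 genes of ribosome biogenesis 15 rose, led by Npm1, nucleophosmin, with 710.3, 710.1 and 656 CPM in stimulated libraries, against 269, 214 and 104 CPM in unstimulated libraries (log2 fold change 1.82). In this list 1 gene fell, and 3 fell without unstimulated library 3. Ubtf, the polymerase I factor that fell, averaged 176 ± 30.97 CPM stimulated against 252 ± 31.8 CPM unstimulated. Of 31 constitutive proteasome genes 30 rose, led by Psma5 with 153, 148 and 144 CPM in stimulated libraries, against 71.3, 59.5 and 16.9 CPM in unstimulated libraries (log2 fold change 1.58). Tcp1, a chaperonin gene, averaged 649 ± 50.4 CPM stimulated against 209 ± 93.1 CPM unstimulated, and Cct7, of the same ring, averaged 795 ± 65.6 CPM stimulated against 259.8 ± 68.4 CPM unstimulated. Hsf1, the heat shock factor, fell with 62.6 ± 2.33 CPM in stimulated cells, against 156 ± 44.98 CPM in unstimulated cells. Xbp1, the factor of the unfolded protein response that also expands the secretory pathway, had 1049, 1111 and 1225 CPM in stimulated libraries, against 232, 166 and 195 CPM in unstimulated libraries (log2 fold change 2.51). P4hb, a protein disulfide isomerase, had 1289, 1304 and 1368 CPM in stimulated libraries, against 417, 327 and 348 CPM in unstimulated libraries (log2 fold change 1.86). Odc1, the first enzyme of polyamine synthesis, averaged 534 ± 31.1 CPM in stimulated cells, against 134 ± 37.3 CPM in unstimulated cells, and Eif5a, the protein that carries hypusine, averaged 2535 ± 131 CPM in stimulated cells, against 984 ± 112 CPM in unstimulated cells. Rpl13 had a log2 fold change of 0.53 (called, adjusted p = 0.00741) and Rps27 one of -0.75 (called, adjusted p = 0.00081) when unstimulated library 3 was left out. Ubtf (adjusted p = 0.0671) was not called in the fit of these 2 groups alone. Rps27 (adjusted p = 0.0342) was called with no filter on low counts. Rps27 (adjusted p = 0.00106) was called with limma voom and quality weights.

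Genes of DNA synthesis and division rose, although unstimulated cells also had counts of them. Of 24 genes of nucleotide synthesis 20 rose and none fell, while 1 fell without unstimulated library 3. Impdh2, of guanine nucleotide synthesis, had 178, 177 and 188 CPM in stimulated libraries, against 64.4, 52.02 and 38.9 CPM in unstimulated libraries (log2 fold change 1.80). Rrm2, the regulated subunit of ribonucleotide reductase, had 586, 648 and 697 CPM in stimulated libraries, against 315, 169 and 126 CPM in unstimulated libraries (log2 fold change 1.66). Of 32 DNA replication genes 27 rose and 1 fell, the uracil glycosylase gene Ung, with a median log2 fold change of 1.36. Cdc45, a helicase subunit, had 164, 186 and 184 CPM in stimulated libraries, against 56.1, 33.5 and 27.3 CPM in unstimulated libraries (log2 fold change 2.19). Mcm6, of the helicase ring, had 922, 1041 and 1069 CPM in stimulated libraries, against 528, 366 and 281 CPM in unstimulated libraries (log2 fold change 1.37). Of 30 genes of mitosis 29 rose, with a median of 1.88, led by Ccnb1, cyclin B1, with 236, 236 and 235 CPM in stimulated libraries, against 50.5, 24.7 and 10.5 CPM in unstimulated libraries (log2 fold change 3.03). Cdk1 had 327, 316 and 322 CPM in stimulated libraries, against 80.02, 49.8 and 27.2 CPM in unstimulated libraries (log2 fold change 2.61). Mki67, the Ki-67 gene, averaged 232 ± 14.8 CPM in stimulated cells, against 122 ± 37.98 CPM in unstimulated cells, a rise near the threshold (adjusted p = 0.0451). Pttg1 (securin) averaged 36.4 ± 3.69 CPM stimulated against 51.8 ± 22.8 CPM unstimulated and was not called. Myc rose with 645, 673 and 699.7 CPM in stimulated libraries, against 219.7, 192 and 448 CPM in unstimulated libraries (log2 fold change 1.23). The CDK inhibitors moved apart. Cdkn1a (p21) had 265, 222 and 307 CPM in stimulated libraries, against 13.3, 6.82 and 21.1 CPM in unstimulated libraries (log2 fold change 4.29), and Cdkn1b (p27), a brake of resting cells, had 42.9, 37.9 and 35.7 CPM in stimulated libraries, against 96.4, 123 and 252 CPM in unstimulated libraries (log2 fold change -2.01). Ccne1, cyclin E1, averaged 150.4 ± 15.97 CPM stimulated against 32.9 ± 8.99 CPM unstimulated and rose. Ccnd2, cyclin D2, averaged 528 ± 17.6 CPM stimulated against 663 ± 207 CPM unstimulated and was not called. Without 1 library, Mki67 had log2 fold changes of 0.93 without stimulated library 1 (no longer called, adjusted p = 0.0794), 0.88 without stimulated library 2 (no longer called, adjusted p = 0.0943), 0.97 without stimulated library 3 (no longer called, adjusted p = 0.067), 0.77 without unstimulated library 2 (no longer called, adjusted p = 0.145) and 0.85 without unstimulated library 3 (no longer called, adjusted p = 0.104). Pttg1 had a log2 fold change of -0.81 (called, adjusted p = 0.000377) and Ung one of -0.45 (no longer called, adjusted p = 0.0749) when unstimulated library 3 was left out. Ccnb1 had a log2 fold change of 3.72 when unstimulated library 1 was left out. Ccnd2 had a log2 fold change of -0.52 (called, adjusted p = 0.0387) when unstimulated library 2 was left out. Ung (adjusted p = 0.0745) was not called in the fit of these 2 groups alone. Pttg1 (adjusted p = 0.0257) was called with no filter on low counts. Mki67 (adjusted p = 0.0606) was not called with RLE scaling. Pttg1 (adjusted p = 0.0325) was called with RLE scaling. Pttg1 (adjusted p = 0.0234) was called with DESeq2. Pttg1 (adjusted p = 0.000255) was called with limma voom and quality weights.

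The E2F motifs TTTCCCGC and TTTGGCGC were each found for 3 of 25 DNA replication genes with an entry, against 1.03% and 0.485% of all genes. The Mcm6 promoter, on chr1:128359706-128359955 (minus strand), holds TTTGGCGC at both marked places, 110 and 47 bases before the start.
Mcm6: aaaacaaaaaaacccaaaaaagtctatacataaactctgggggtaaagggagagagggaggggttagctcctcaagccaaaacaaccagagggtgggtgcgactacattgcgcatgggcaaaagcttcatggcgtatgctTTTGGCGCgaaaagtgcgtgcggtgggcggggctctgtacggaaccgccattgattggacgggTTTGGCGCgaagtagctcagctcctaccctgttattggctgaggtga

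Cell death genes of the BCL2 family were split, 5 higher and 5 lower of 17 tested, in each direction a share near the 25.2% and 27.5% of all genes. Without unstimulated library 3, 8 of them were higher, and 2, 3 and 3 were lower without stimulated library 1, stimulated library 3 and unstimulated library 2. Mcl1, an unstable survival factor, fell with 412, 397 and 394 CPM in stimulated libraries, against 707, 858 and 2597 CPM in unstimulated libraries (log2 fold change -1.79). Bcl2 averaged 504 ± 29.6 CPM in stimulated cells, against 410.2 ± 175 CPM in unstimulated cells and was not called. Bax, an effector of cell death, rose with 205 ± 8.47 CPM stimulated against 141 ± 40.4 CPM unstimulated, and Bcl2l11 (BIM), which promotes it, fell with 42.1 ± 5.42 CPM stimulated against 56.8 ± 3.396 CPM unstimulated. Bcl2 had a log2 fold change of 0.70 (called, adjusted p = 0.000253) and Mcl1 one of -0.96 when unstimulated library 3 was left out. Bcl2l11 had a log2 fold change of -0.39 (no longer called, adjusted p = 0.0686) when unstimulated library 2 was left out. Bcl2l11 had a log2 fold change of -0.33 (no longer called, adjusted p = 0.123) when stimulated library 3 was left out. Bax (adjusted p = 0.0933) and Bcl2l11 (adjusted p = 0.0983) were not called in the fit of these 2 groups alone. Bcl2l11 (adjusted p = 0.0701) was not called with no filter on low counts. Bcl2 (adjusted p = 0.000179) was called with limma voom and quality weights.

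Receptors for migration fell more often than they rose. Of 14 chemokine receptor genes tested 8 fell and 2 rose, with a median log2 fold change of -2.32. When unstimulated library 3 was left out, 7 fell and 2 rose, with a median of -1.62. Cxcr6, the receptor for CXCL16, had 15.4, 11.3 and 21.4 CPM in stimulated libraries, against 494, 291 and 181 CPM in unstimulated libraries (log2 fold change -4.33). Cxcr3, a Th1-linked receptor, had 51.8, 66.3 and 75.6 CPM in stimulated libraries, against 302, 186 and 352 CPM in unstimulated libraries (log2 fold change -2.12). Ccr2 had 3.84, 5.66 and 6.92 CPM in stimulated libraries, against 92.02, 51.3 and 32.2 CPM in unstimulated libraries (log2 fold change -3.42). Cxcr5, which guides cells to follicles, averaged 1.01 ± 0.842 CPM stimulated against 9.94 ± 1.18 CPM unstimulated. Ccr7, the receptor for lymph node entry, fell with 585, 529 and 470.0 CPM in stimulated libraries, against 698, 878 and 890.3 CPM in unstimulated libraries (log2 fold change -0.64). Ccr8 and Ccr4, receptors linked to Th2 and regulatory cells, were the 2 that rose. Ccr8 had 11.3, 12.9 and 21.6 CPM in stimulated libraries, against 0.933, 2.14 and 3.42 CPM in unstimulated libraries (log2 fold change 2.87). Ccr4 had 38.8, 27.6 and 44.2 CPM in stimulated libraries, against 13.1, 9.04 and 5.14 CPM in unstimulated libraries (log2 fold change 2.0). Among 20 homing and integrin genes 11 fell and 2 rose, namely Itgav and Itgb3. Itga4, the alpha4 chain of VLA-4, had 15.3, 12.8 and 14.2 CPM in stimulated libraries, against 295, 351 and 246 CPM in unstimulated libraries, a log2 fold change of -4.40 ± 0.24 (SE, adjusted p = 1.98e-11). Itgb7, the beta7 chain, had 887, 865 and 873 CPM in stimulated libraries, against 1334, 1350 and 2422 CPM in unstimulated libraries (log2 fold change -0.96). S1pr1, the receptor for exit from lymphoid organs, had 126, 122 and 100.5 CPM in stimulated libraries, against 859, 1116 and 654 CPM in unstimulated libraries (log2 fold change -2.92), and Gpr183, an oxysterol receptor, averaged 29.02 ± 7.39 CPM stimulated against 128 ± 21.3 CPM unstimulated. Cd44, an activation marker usually read as protein, averaged 64.02 ± 5.398 CPM in stimulated cells, against 67.8 ± 33.3 CPM in unstimulated cells and was not called. Without 1 library, Itgav had log2 fold changes of 0.35 without stimulated library 1 (no longer called, adjusted p = 0.143), 0.42 without unstimulated library 1 (no longer called, adjusted p = 0.0868) and 0.36 without unstimulated library 2 (no longer called, adjusted p = 0.132). Itgb3 had a log2 fold change of 0.37 (no longer called, adjusted p = 0.0651) when unstimulated library 3 was left out. Cxcr5 had a log2 fold change of -4.21 and Itgb3 one of 0.37 (no longer called, adjusted p = 0.0927) when stimulated library 1 was left out. Itgav (adjusted p = 0.137) and Itgb3 (adjusted p = 0.115) were not called in the fit of these 2 groups alone. Itgav (adjusted p = 0.106) and Itgb3 (adjusted p = 0.0691) were not called with no filter on low counts. Itgav (adjusted p = 0.078) was not called with RLE scaling. Itgav (adjusted p = 0.0633) was not called with DESeq2.

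Effector genes gave a mixed picture at 72 h. Lta, lymphotoxin alpha, rose with 515, 522 and 603 CPM in stimulated libraries, against 228, 138 and 136 CPM in unstimulated libraries (log2 fold change 1.71). Tnf rose with 70.5, 65.7 and 65.6 CPM in stimulated libraries, against 39.7, 29.03 and 29.2 CPM in unstimulated libraries (log2 fold change 1.04). Ebi3, a subunit of IL-27 and IL-35, rose with 12.2, 11.7 and 23.2 CPM in stimulated libraries, against 2.12, 1.13 and 4.54 CPM in unstimulated libraries (log2 fold change 2.66). Il2 was low in all libraries and lower in stimulated ones, with 0.469, 0.368 and 0.1297 CPM in stimulated libraries, against 1.65, 1.75 and 1.03 CPM in unstimulated libraries. Ifng averaged 2.62 ± 1.2 CPM in stimulated cells, against 7.997 ± 6.94 CPM in unstimulated cells, and Il4 averaged 6.63 ± 1.18 CPM in stimulated cells, against 8.41 ± 3.39 CPM in unstimulated cells. Neither was called. Ltb, lymphotoxin beta, fell with 1367, 1251 and 1300 CPM in stimulated libraries, against 1877, 1816 and 6834 CPM in unstimulated libraries (log2 fold change -1.43). Of 16 cytotoxic effector genes, 13 were tested and 4 rose and 4 fell, against 25.2% higher and 27.5% lower of all genes tested. Gzmb averaged 657 ± 167 CPM in stimulated cells, against 51.3 ± 31.7 CPM in unstimulated cells. Gzmc had 11.2, 10.8 and 8.35 CPM in stimulated libraries, against 2.23, 0.974 and 2.05 CPM in unstimulated libraries (log2 fold change 2.54). Prf1, the pore-forming perforin, fell with 9.25, 4.97 and 9.77 CPM in stimulated libraries, against 19.5, 22.7 and 25 CPM in unstimulated libraries (log2 fold change -1.48), and the death ligand Tnfsf10 (TRAIL) fell with 5.41 ± 0.341 CPM stimulated against 17.6 ± 7.001 CPM unstimulated. Of 10 secreted chemokine genes tested none rose and 3 fell, Xcl1, Ccl3 and Ccl5, a share of falls near the 27.5% of all genes tested. Xcl1, a chemokine for dendritic cells, had 0.341, 0.04604 and 0.216 CPM in stimulated libraries, against 12.3, 6.31 and 7.53 CPM in unstimulated libraries. Ccl5 had 22.4, 19.1 and 12.4 CPM in stimulated libraries, against 45.9, 32.4 and 60.5 CPM in unstimulated libraries (log2 fold change -1.36). Without 1 library, Ccl3 had log2 fold changes of -5.58 without stimulated library 1 (no longer called, adjusted p = 0.053), -3.85 without stimulated library 2 (no longer called, adjusted p = 0.106), -4.21 without stimulated library 3 (no longer called, adjusted p = 0.0977) and -2.13 without unstimulated library 1 (no longer called, adjusted p = 0.328). Ebi3 had a log2 fold change of 3.27 and Ltb one of -0.50 when unstimulated library 3 was left out. Gzmb had a log2 fold change of 4.28 when unstimulated library 1 was left out. Il2 had a log2 fold change of -1.82 (no longer called, adjusted p = 0.0831) when stimulated library 3 was left out. Ifng (adjusted p = 6.03e-06) was called with no filter on low counts.

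Interferon-linked genes did not move as a single block. Of 33 interferon response genes 15 rose and 4 fell, against 25.2% higher and 27.5% lower of all genes tested. In this list 7 fell without unstimulated library 3. Isg15, a ubiquitin-like modifier, had 71.8, 79.5 and 44.3 CPM in stimulated libraries, against 13.9, 11.4 and 11.4 CPM in unstimulated libraries (log2 fold change 2.41). Rsad2 (viperin) had 20.6, 17.03 and 9.51 CPM in stimulated libraries, against 2.23, 1.99 and 2.397 CPM in unstimulated libraries (log2 fold change 2.84). Irf1, an interferon regulatory factor gene, fell with 246, 279 and 256 CPM in stimulated libraries, against 920.1, 1073 and 879.7 CPM in unstimulated libraries (log2 fold change -1.88). Of the 17 guanylate-binding proteins and immunity-related GTPases, a family whose near-identical copies can share reads, 15 fell and none rose, with a median log2 fold change of -1.69. Gbp4 had 189.5, 224 and 182 CPM in stimulated libraries, against 1080, 1238 and 493 CPM in unstimulated libraries (log2 fold change -2.24). Gbp8 had 56.01, 50.5 and 41.2 CPM in stimulated libraries, against 294, 334 and 148 CPM in unstimulated libraries (log2 fold change -2.40). Gbp9 had 43.5, 48.5 and 41.7 CPM in stimulated libraries, against 258, 301 and 135 CPM in unstimulated libraries (log2 fold change -2.38). In each of these 3 genes every unstimulated library was above every stimulated one. The interferon-stimulated response element, with an unspecified pair of bases between its GAAA repeats, was found for 11 of 24 interferon genes with an entry, against 3.46% of all genes, whatever their direction here. The Rsad2 promoter, on chr12:26456453-26456702 (minus strand), carries it in capitals, read from the other strand, 120 bases before the start.
Rsad2: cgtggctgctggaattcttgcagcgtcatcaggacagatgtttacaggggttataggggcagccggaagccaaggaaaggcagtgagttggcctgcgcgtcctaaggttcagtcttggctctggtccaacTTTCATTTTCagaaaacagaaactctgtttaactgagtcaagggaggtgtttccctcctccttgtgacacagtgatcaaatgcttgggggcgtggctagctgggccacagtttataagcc

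Class I presentation genes fell more often than they rose, and class II genes were split. Of 21 class I and immunoproteasome genes 11 fell and 4 rose, and 2 rose when stimulated library 3 was left out. H2-K1, a class I heavy chain gene whose relatives can share reads, had 3197, 2947 and 2740 CPM in stimulated libraries, against 5226, 5207 and 9069 CPM in unstimulated libraries (log2 fold change -1.13), and Tapbp (tapasin), which loads peptide, had 674, 769 and 734 CPM in stimulated libraries, against 1234, 1263 and 2108 CPM in unstimulated libraries (log2 fold change -1.08). Nlrc5, the class I transactivator, fell with 188 ± 6.66 CPM in stimulated cells, against 401 ± 107 CPM in unstimulated cells. B2m, the light chain, averaged 2793 ± 269 CPM in stimulated cells, against 3224 ± 528 CPM in unstimulated cells and was not called. Psmb8, an immunoproteasome gene, rose with 1317 ± 35.4 CPM stimulated against 812 ± 107 CPM unstimulated, and Psmb9 rose with 587 ± 39.7 CPM stimulated against 439.8 ± 58.1 CPM unstimulated. Of 10 class II genes tested 5 rose and 2 fell, and 1 fell without stimulated library 2. The shares over all genes tested were 25.2% higher and 27.5% lower. H2-Ab1, the beta chain of I-A, had 201, 169 and 161 CPM in stimulated libraries, against 8.11, 4.01 and 7.704 CPM in unstimulated libraries (log2 fold change 4.75). H2-Aa, its partner, averaged 1.08 ± 0.875 CPM stimulated against 3.54 ± 1.99 CPM unstimulated and was not called. H2-Ob, a chain of the peptide editor H2-O, fell with 11.8, 4.696 and 5.45 CPM in stimulated libraries, against 76.5, 95.2 and 30.1 CPM in unstimulated libraries (log2 fold change -3.20). H2-DMb2, of the editor H2-DM, rose with 18.3, 12.6 and 13.8 CPM in stimulated libraries, against 1.98, 0.701 and 1.11 CPM in unstimulated libraries (log2 fold change 3.53). Ciita, the class II transactivator, averaged 0.749 ± 0.491 CPM stimulated against 3.701 ± 0.131 CPM unstimulated and was called lower. Cd74, the invariant chain, averaged 27.6 ± 10.1 CPM in stimulated cells, against 25.6 ± 16.3 CPM in unstimulated cells and was not called. Psmb9 had a log2 fold change of 0.36 (no longer called, adjusted p = 0.0633) when stimulated library 1 was left out. Ciita had a log2 fold change of -1.84 (no longer called, adjusted p = 0.0527) when stimulated library 2 was left out. Psmb9 (adjusted p = 0.115) was not called in the fit of these 2 groups alone. Psmb9 (adjusted p = 0.0832) was not called with no filter on low counts. H2-Aa (adjusted p = 0.0029) was called with no filter on low counts. B2m (adjusted p = 0.0468) and H2-Aa (adjusted p = 0.0331) were called with limma voom and quality weights.

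Of 26 NRF2 and antioxidant genes 17 rose and 2 fell, with a median log2 fold change of 1.01. Of 12 genes of iron uptake and storage tested 5 rose and 2 fell, and 4 fell without unstimulated library 3 and 1 without any other library. The shares over all genes tested were 25.2% higher and 27.5% lower. Of 22 genes of NAD synthesis and consumption tested 7 rose and 4 fell, against 25.2% higher and 27.5% lower of all genes tested. Tfrc, the transferrin receptor for iron uptake, had 601, 767 and 811 CPM in stimulated libraries, against 70.01, 37.5 and 15.2 CPM in unstimulated libraries (log2 fold change 4.14). Hmox1, haem oxygenase, rose with 17.7 ± 4.96 CPM stimulated against 2.15 ± 0.3304 CPM unstimulated. Prdx4, a peroxiredoxin of the endoplasmic reticulum, rose with 260.2, 202 and 242 CPM in stimulated libraries, against 50.4, 34.7 and 26.6 CPM in unstimulated libraries (log2 fold change 2.65). Gclc, the rate-limiting enzyme of glutathione synthesis, fell with 66.2, 79.5 and 67.3 CPM in stimulated libraries, against 110.5, 132 and 176 CPM in unstimulated libraries (log2 fold change -0.97). In NAD metabolism Nampt, of the salvage route from nicotinamide, rose with 209.7, 222 and 212 CPM in stimulated libraries, against 82.4, 89.2 and 44.1 CPM in unstimulated libraries (log2 fold change 1.58). Nmnat1, a nuclear NAD synthase, rose with 17.7 ± 1.102 CPM stimulated against 2.95 ± 1.36 CPM unstimulated. Qprt, of the route from tryptophan, fell with 5.41, 4.88 and 7.13 CPM in stimulated libraries, against 21.5, 25.1 and 23.5 CPM in unstimulated libraries (log2 fold change -2.01). Of 15 cyclic AMP enzymes tested 8 fell and 1 rose, Pde4a, with a median log2 fold change of -0.94. In this list 6 fell without unstimulated library 3, with a median of -0.36. Pde3b, a phosphodiesterase, had 93.3, 81.4 and 85.2 CPM in stimulated libraries, against 320.5, 318 and 879.6 CPM in unstimulated libraries (log2 fold change -2.54). Pde4b had 68.4, 49.2 and 49.6 CPM in stimulated libraries, against 229, 243 and 139 CPM in unstimulated libraries (log2 fold change -1.87). Pde4d averaged 52.03 ± 4.2 CPM stimulated against 49.95 ± 22.4 CPM unstimulated and was not called. Among the sialyltransferases, beside St8sia6, St3gal4 rose with 133 ± 4.36 CPM stimulated against 39.4 ± 10.5 CPM unstimulated, and St6galnac3 fell with 1.23 ± 0.579 CPM stimulated against 12.6 ± 3.84 CPM unstimulated. On the cell surface, Cd24a, a glycoprotein of immature and dividing lymphocytes, had 24.2, 29.4 and 43.03 CPM in stimulated libraries, against 0.144, 0.3897 and 0.0856 CPM in unstimulated libraries. Slamf7, a receptor of the SLAM family, rose with 64.4 ± 12.1 CPM stimulated against 7.88 ± 2.92 CPM unstimulated, and Cd7 fell with 3.51 ± 0.6897 CPM stimulated against 28.3 ± 4.96 CPM unstimulated. Cd69, an early activation marker, rose with 79.6 ± 7.59 CPM in stimulated cells, against 34.2 ± 19.5 CPM in unstimulated cells. Pde3b had a log2 fold change of -1.88 when unstimulated library 3 was left out. Pde4a had a log2 fold change of 0.99 (no longer called, adjusted p = 0.0555) and Tfrc one of 4.77 when unstimulated library 1 was left out. Pde4a (adjusted p = 0.0828) was not called in the fit of these 2 groups alone. Pde4d (adjusted p = 0.0337) was called with limma voom and quality weights.

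**Figure D4:**
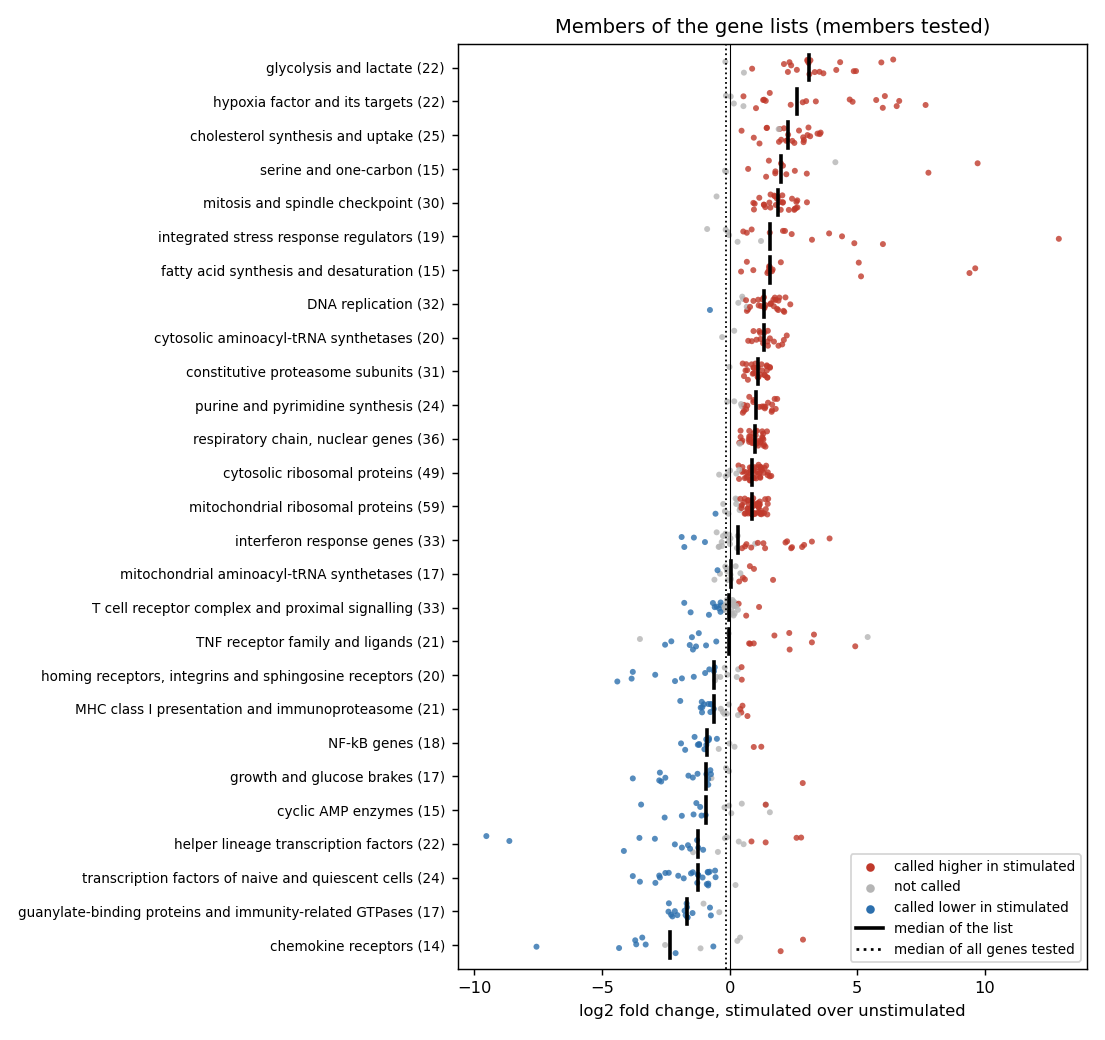
Rows are 27 gene lists ordered by their median log2 fold change, stimulated over unstimulated, with the number of members tested; points are members, red if called higher and blue if called lower in stimulated cells, and black bars are list medians. Glycolysis lies highest at a median of 3.11 and chemokine receptors lowest at -2.32, with the dotted line at the -0.13 of all genes tested. The lowest place depends on unstimulated library 3. When it was left out, chemokine receptors had a median of -1.62, above the -2.035 of guanylate-binding proteins and immunity-related GTPases.

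Genes annotated as antisense or sense intronic fell more often than they rose, and processed pseudogenes rose more often than they fell. Of 12771 protein-coding genes tested 29.1% rose and 26.1% fell. Of 714 genes annotated as antisense 40 rose and 305 fell (42.7%), and of 112 sense intronic genes none rose and 62 fell (55.4%). Of 1023 processed pseudogenes 335 rose (32.7%) and 118 fell. Without unstimulated library 3 the falls were 295 antisense and 59 sense intronic genes and the rises 341 pseudogenes. The counting is not stated to use strand, so reads of an antisense or intronic gene and of its overlapping gene cannot be told apart, nor can those of a processed pseudogene and its parent. Gm26917, of the rRNA-like genes counted above, and Gm23935 were among the genes with the largest falls in CPM. Gm26917 had 2424, 2227 and 2038 CPM in stimulated libraries, against 2173, 2299 and 10200 CPM in unstimulated libraries (log2 fold change -1.13). Gm23935 had 1507, 1298 and 1312 CPM in stimulated libraries, against 1298, 1044 and 7816 CPM in unstimulated libraries (log2 fold change -1.30). Both falls rest on unstimulated library 3. Shisa5 averaged 1234 ± 73.1 CPM stimulated against 3131 ± 168 CPM unstimulated, Arhgap45 averaged 694 ± 28.6 CPM stimulated against 2560 ± 896 CPM unstimulated, and H2-D1 averaged 4599 ± 220.2 CPM stimulated against 7762 ± 2698 CPM unstimulated. Without 1 library, Gm23935 had log2 fold changes of -1.26 without stimulated library 2 (no longer called, adjusted p = 0.0675), -1.27 without stimulated library 3 (no longer called, adjusted p = 0.0669) and 0.23 without unstimulated library 3 (no longer called, adjusted p = 0.403). Without 1 library, Gm26917 had log2 fold changes of -1.20 without stimulated library 1 (no longer called, adjusted p = 0.0544), -1.13 without stimulated library 2 (no longer called, adjusted p = 0.0681), -1.07 without stimulated library 3 (no longer called, adjusted p = 0.0827) and -0.0041 without unstimulated library 3 (no longer called, adjusted p = 0.993). Gm23935 (adjusted p = 0.162) and Gm26917 (adjusted p = 0.133) were not called in the fit of these 2 groups alone. Gm23935 (adjusted p = 0.669) and Gm26917 (adjusted p = 0.752) were not called with limma voom and quality weights.

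The response under the knockout label was compared with that under the wild-type label by a test of the difference itself. Of 16882 genes 1 was called, or 0.00592%, and it was lower. Nrn1, which encodes neuritin, a surface protein linked to anergic and regulatory T cells, had under the knockout label 25.2, 21.3 and 19.6 CPM in stimulated libraries, against 13.2, 9.78 and 16.1 CPM in unstimulated libraries. Under the wild-type label it had 37.0, 40.6 and 36.4 CPM in stimulated libraries, against 6.96, 6.00 and 7.33 CPM in unstimulated libraries. The difference between the log2 fold changes was -1.72 ± 0.25 (SE, adjusted p = 0.0156). At an unadjusted p under 0.05, 612 genes had a higher and 1161 a lower response under the knockout label, and DESeq2 called 6 genes lower. With no filter on low counts, edgeR called 46 genes higher and 411 lower. The median standard error of a difference was 0.45 on the log2 scale. Of the 8903 genes called under the knockout label 6163 were also called in the same direction under the wild-type label, 69.2% of those 8903 and 81.0% of the 7613 called there, with 3 called in opposite directions. These comparisons share no library. The rise of Nrn1 by stimulation under the knockout label was not called in the fit of the 2 knockout-labelled groups alone (adjusted p = 0.0521). Its difference between the labels was not called in the fit of the compared groups alone (adjusted p = 0.382).

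Niacin did not give a called difference in the response of knockout-labelled cells in the main fit. No gene passed there by edgeR, where the smallest adjusted p was 0.24. At an unadjusted p under 0.05, 395 genes had a higher and 748 a lower response without niacin, and DESeq2 called 1 gene lower. With no filter on low counts, edgeR called 46 genes higher and 199 lower. Of the 8903 genes called without niacin 6706 were called in the same direction with it, 75.3% of that list and 79.8% of the 8406 called with niacin, and 1 in the opposite direction. Nrn1 averaged 23.7 ± 1.47 CPM in stimulated (n = 3) and 10.4 ± 0.593 CPM in unstimulated (n = 2) cells with niacin.

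**Figure D5:**
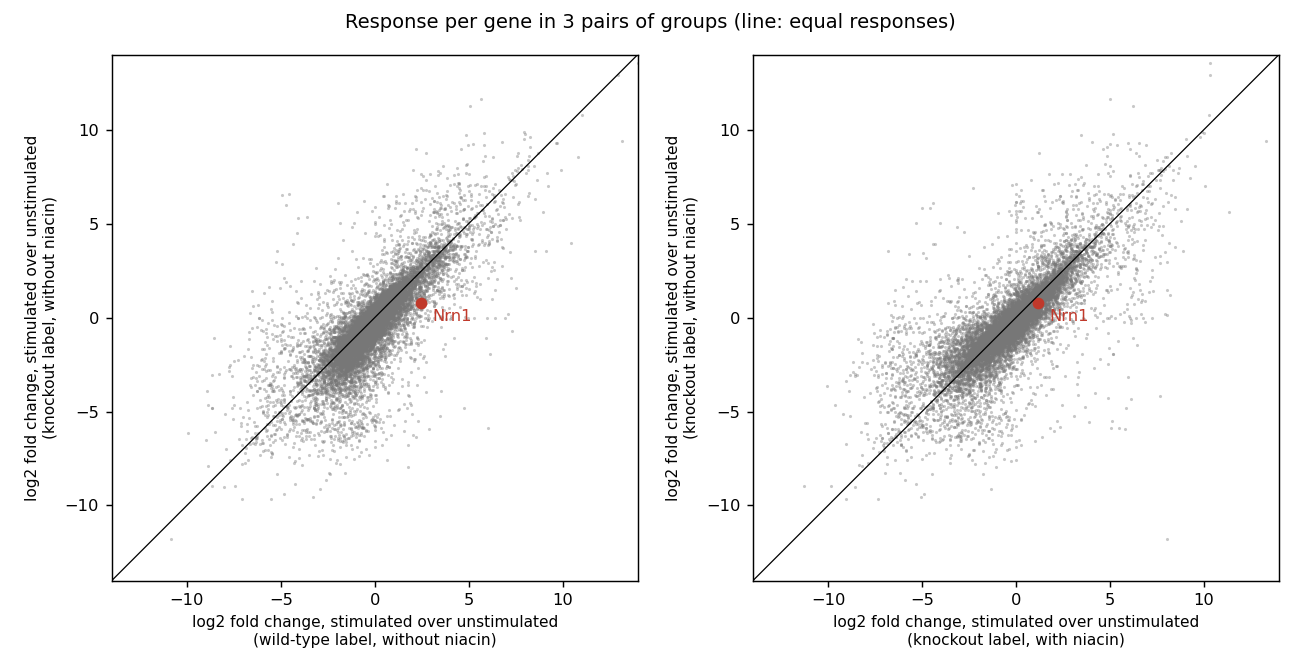
Each point is a gene tested, with its log2 fold change by stimulation in knockout-labelled cells without niacin on the y axis, and that in wild-type-labelled cells without niacin (left) or knockout-labelled cells with niacin (right) on the x axis; the line marks equal responses. Nrn1, in red, lies below the line against the wild-type label at a difference of -1.72.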

How the data were processed

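RNA of sorted mouse CD4+ T cells was extracted with TRIzol, amplified with SMART-seq V4 and sequenced on an Illumina HiSeq, per the labels' protocols. Per the submitters' processing notes, reads went through Trimmomatic 0.38, STAR 2.7.0e and featureCounts 1.6.3. The deposited values are whole-number gene counts of 23 libraries over 53379 genes, while the sources used here do not give the strand setting or annotation release. Library totals, 13205565 to 25521210 in the 6 libraries described, set the precision of low genes.

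Counts were fitted with edgeR 4.0.16 in R 4.3.3, with TMM factors, a mean for each of 8 groups and the filterByExpr minimum of 10 counts, which left 16882 genes. Groups were compared with the quasi-likelihood F test, a 2-fold test (glmTreat) and, for the difference between responses, contrasts of 4 groups. P-values were adjusted by Benjamini-Hochberg over all genes tested, with a threshold of 0.05, and the standard error is the log2 fold change over the root of F. CPM are the scaled counts. DESeq2 1.42.0, limma 3.58.1 (voom with quality weights), RLE factors, no filter, a replicate block, a fit of the compared groups only and leaving out each library were alternatives. Scripts were tested on simulated data.

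Members and gene lists were chosen with earlier results of these data known. Genes are named by size, in each direction. The 12 largest log2 fold changes were taken among genes called above 2-fold with at least 20 CPM in the higher group. Their 3 and 3 libraries also had to be without overlap. The 10 largest CPM differences were taken among all called genes. From each list came up to 5 called members in each direction, with at least 5 CPM in the higher group, and 3 not called. A set of activation genes was named whatever their values. Named after their values were seen, outside that rule, were Acaca, Aldh1l2, Atf4, Ccl3, Cd27, Cd40lg, Ciita, Fasn, Foxo1, Hif1a, Hk1, Itgb7, Klrb1c, Mcm6, Ms4a1, Nfkbia, Rps27, Slc2a3, Srebf1 and Srebf2. Some genes are not reported here. Promoter sequences come from RefSeq (GRCm38.p6).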

Additional observations from a re-analysis of the deposited data

Results flagged for a closer look

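Nrn1 was the 1 gene called for a difference in its response to stimulation between the genotype labels. Its log2 fold change under the knockout label minus that under the wild-type label was -1.72, by edgeR's test of the difference (adjusted p = 0.0156). The adjusted p ran from 7.33e-08 to 0.382 over 18 other settings, and the call was lost in 8 of them. It was 0.382 in the fit of the compared groups only, 0.0953 and 0.112 without stimulated knockout-labelled library 2 or 3, 0.0564 without unstimulated knockout-labelled library 1, 0.0512 and 0.0969 without stimulated wild-type-labelled library 1 or 2, and 0.0628 and 0.11 without unstimulated wild-type-labelled library 1 or 2. For Nrn1 no difference by niacin was called in knockout-labelled cells (without minus with niacin -0.42, adjusted p = 0.722).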

How the results depend on the processing

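With RLE factors, DESeq2, no filter, the replicate block or voom, 90 to 97.5% of the 8903 calls kept their direction and side of the threshold, and when 1 library was left out 85.1 to 89.5% did. Leaving out 1 library gave 3827 to 4571 genes higher and 3920 to 4583 lower, and 1270 to 1558 higher and 1314 to 1707 lower by more than 2-fold. The fit of the compared groups only gave 3091 genes lower, and 949 higher and 948 lower by more than 2-fold. It gave 0 lower in the difference between the labels and kept 66.9% of the calls. That fit has fewer libraries and takes the spread from the compared groups only. In the difference between the knockout and wild-type labels, no filter gave 46 genes higher and 411 lower, DESeq2 gave 6 lower, and leaving out 1 library gave 0 to 2 lower and 0 higher. In the difference by niacin, no filter gave 46 higher and 199 lower, DESeq2 gave 1 lower, and leaving out 1 library gave 0 to 1 higher and 0 lower. The cause of these shifts was not tested. Gm23935 turned to 0.12 with voom and ran from -1.73 to 0.23 when 1 library was left out, and Rpl13, which is not called, turned to 0.46 with voom and ran from -0.42 to 0.53, with both turns on leaving out unstimulated library 3. The replicate numbers did not pair the libraries (correlations of deviations 0.019, 0.015 and 0.062 for same-numbered libraries). With the replicate number as a block, 4220 genes were higher and 4452 lower, 1467 and 1605 by more than 2-fold, 1 gene was lower in the difference between the labels and 0 differed by niacin. With the block Gm26917 and Ccl3 were no longer called (adjusted p = 0.0506 and 0.0595), and H2-Aa and Pfkfb4 were called (0.0286 and 0.0366). Genes under 1 CPM rest on few counts, which limits their fold changes.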
